A study of Mus musculus with 6 samples.

Results

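The miR-34 family and the miR-192 and miR-194 families of microRNAs (miRNAs, small regulatory RNAs that recognise messenger RNAs through a seed near their 5′ end) were examined in the left ventricle of sunitinib-treated and control mice. The members are mmu-miR-34a-5p, mmu-miR-34b-5p, mmu-miR-34c-5p, mmu-miR-192-5p and mmu-miR-194-5p, written below without the mouse prefix. They were chosen by name, as the mouse spots whose systematic name equals one of these, and they are 5 of the 1881 mouse miRNAs on the array. The study compared 3 sunitinib samples with 3 control samples that received vehicle, all from male C57BL/6 mice. Each sample's total RNA was labelled with the dye Cy3 and put on its own Agilent array for mouse miRNAs. The labels give no dose, treatment length or age, and all 6 samples come from the same strain, sex and tissue. Nothing states that each sample is a separate animal, so the p-values reflect the spread among these 6 samples alone, part of which may be technical.

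Sunitinib inhibits several receptor tyrosine kinases, is used against renal cell carcinoma and gastrointestinal stromal tumours, and is known for cardiac side effects. The transcription factor p53, activated by DNA damage and other stresses, directly switches on the genes of miR-34a and of the miR-34b/c pair, whose products repress cell-cycle and survival genes. In human cells p53 also raises miR-192, miR-194 and miR-215, and in healthy animals miR-192 and miR-194 are best known from liver, gut and kidney. In the mouse heart, miR-34a is known to rise with age and after injury, while miR-34b and miR-34c are known mainly from ciliated epithelium, brain and testis.

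The mature sequences below, written 5′ to 3′ from RefSeq on GRCm38.p6, show which members can share targets; capitals mark the seed, bases 2 to 8. RefSeq entries matched 4 of the 5 members by name. miR-34a-5p lies at chr4:150068473-150068494 on the plus strand, in a hairpin gene with no other annotated gene over it. miR-34b-5p lies at chr9:51103610-51103632 on the minus strand, and its hairpin is 451 bases from that of miR-34c, on the same strand and within the spans of Btg4 and Hoatz. miR-192-5p lies at chr19:6264857-6264877 on the plus strand, and its hairpin is 115 bases from the Mir194-2 hairpin. miR-194-5p has 2 gene copies with the same mature sequence, at chr19:6264658-6264679 and chr1:185313325-185313346, both on the plus strand. The chromosome 1 copy lies 195 bases from the hairpin of miR-215, within Iars2.
miR-34a-5p: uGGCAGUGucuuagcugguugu
miR-34b-5p: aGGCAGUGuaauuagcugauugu
miR-449a-5p: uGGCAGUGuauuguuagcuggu
miR-192-5p: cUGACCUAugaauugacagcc
miR-215-5p: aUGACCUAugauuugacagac
miR-194-5p: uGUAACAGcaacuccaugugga

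miR-34a-5p, miR-34b-5p and miR-449a-5p shared the seed GGCAGUG, as did miR-449c-5p. miR-192-5p shared UGACCUA with miR-215-5p, and miR-194-5p had a seed of its own among these. The array reads each miRNA through short DNA probes that pair with it from its 3′ end. Those of the detected members reach into the seed without covering all of it. The brightest probe of each detected member, which stood for it in the main test, is printed below in DNA letters, 5′ to 3′. The capital is the base that the member's other, shorter probe lacks.
miR-34a-5p probe: acaaccagctaagacactgC
miR-192-5p probe: ggctgtcaattcataggtC
miR-194-5p probe: tccacatggagttgcT

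The miR-34a-5p probe pairs with bases 3 to 22 of its miRNA, the miR-192-5p probe with bases 3 to 21, and the miR-194-5p probe with bases 7 to 22. Aligned without gaps, the 20-base miR-34a-5p probe has 11 paired bases with miR-34b-5p and 13 with miR-449a-5p. The 19-base miR-192-5p probe has 17 paired bases with miR-215-5p, and the files hold no measure of how much of either relative each probe binds. Both copies of miR-194-5p give the same mature RNA, and the array cannot separate them.

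Of the 5 members, miR-34a-5p, miR-192-5p and miR-194-5p were well above background on all 6 arrays, miR-34b-5p on 1 array and miR-34c-5p on none. None of the 3 detected members passed the test between sunitinib and control hearts. The scanner software marks spots as well above background, and on each array this mark came down to a single signal limit between 11.3 and 13.2 scanner units. A miRNA was taken as well above where at least 50% of the usable spots of its brightest probe were. Tests covered the 237 miRNAs that reached this level in every array of either group. Of the 3 tested members 0 had an adjusted p under 0.05 in limma with Benjamini-Hochberg adjustment, beside 8 of all 237 (3.38%), 4 higher (1.69%) and 4 lower (1.69%) with sunitinib. At an unadjusted p under 0.05 limma called 0 of the 3 members and 45 of the 237 (19%).

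**Figure D1:**
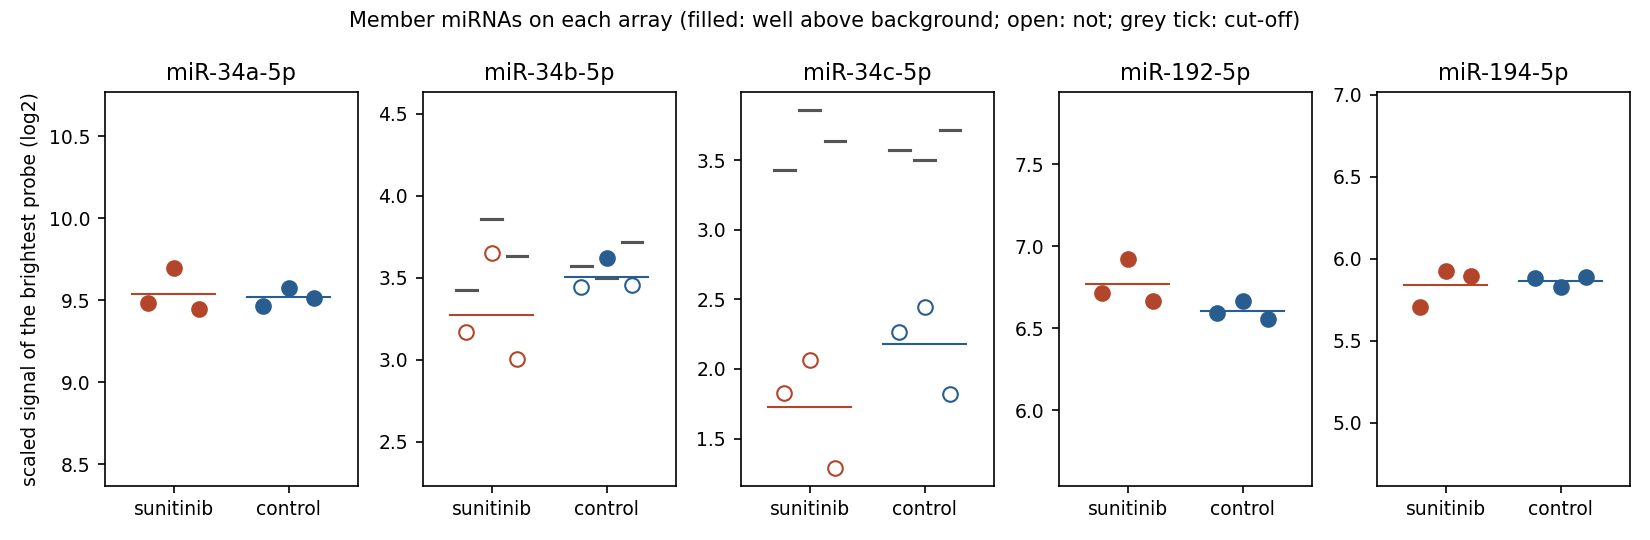
Scaled log2 signal of the brightest probe of each member (vertical axis, each panel with its own range of at least 2.4 log2 units) on the 3 sunitinib arrays (left, red) and the 3 control arrays (right, blue), with each group's mean as a line. Filled points are well above background and open points are not; grey ticks give each array's limit for the 2 dim members, and miR-34b-5p passes it on control replicate 2 alone.

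Signal was compared between arrays after each array was divided by a factor of its own, set so that the 75th percentile over 393 probes detected on all 6 was equal. The factors were 1.12, 0.908 and 0.988 for sunitinib replicates 1 to 3 and 1.11, 1.04 and 0.861 for control replicates 1 to 3. The arrays had 56430 spots each, of which 10.9 to 12.0% were well above background, and no spot was saturated. The markers of heart muscle (miR-1a-3p, miR-133a-3p, miR-133b-3p, miR-208a-3p and miR-499-5p) were well above background on all arrays, 5 of 5, and none of them passed the test. Liver-specific miR-122-5p was at background on all arrays, as were 8 of 9 epithelial and both neuronal markers.

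miR-34a-5p, the member with the best-known link to p53 and to cardiac ageing, showed no detectable difference between the groups. Its scaled log2 signal was 9.48, 9.70 and 9.45 in sunitinib hearts, replicates 1 to 3, against 9.47, 9.58 and 9.51 in control hearts. Sunitinib replicate 2 was the highest of the 6 arrays and sunitinib replicate 3 the lowest, so the control values lay inside the sunitinib range. The means were 9.54 ± 0.14 in sunitinib hearts and 9.52 ± 0.056 in control hearts (SD, n = 3 each). The log2 change was 0.02 with a standard error of 0.085, and limma gave an adjusted p of 0.888. The 95% interval, −0.18 to 0.23, covers 0.880 to 1.17 times the control level, so a larger difference in either direction lies outside it.

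Before scaling, the same probe of miR-34a-5p read 804, 755 and 689 scanner units in sunitinib hearts and 782, 799 and 630 units in control hearts. Replicate 3 was the lowest array of both groups, and the array called highest after scaling was not the highest before it. These signals were 55.7 to 67.6 times the limit for a spot well above background, and all 87 usable spots of the probe passed it. The shorter, 19-base probe of miR-34a-5p gave a log2 change of −0.03, with 437, 396 and 373 units in sunitinib hearts against 438, 447 and 349 units in control hearts. The 2 probes thus had changes of opposite sign, each smaller than the SD of its sunitinib group.

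miR-34b-5p, which is transcribed together with miR-34c from its own p53-responsive gene, lay at the limit of detection. The spots of its brightest probe averaged 10.3, 11.6 and 8.07 units in sunitinib hearts and 12.3, 13.2 and 9.81 units in control hearts. Array by array this was 0.857, 0.876 and 0.659 times the limit in sunitinib hearts and 0.936, 1.12 and 0.867 times the limit in control hearts. Only control replicate 2 passed. The number of spots above the limit was 5 of 15, 3 of 15 and 0 of 13 in sunitinib hearts and 7, 10 and 5 of 15 in control hearts.

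**Figure D2:**
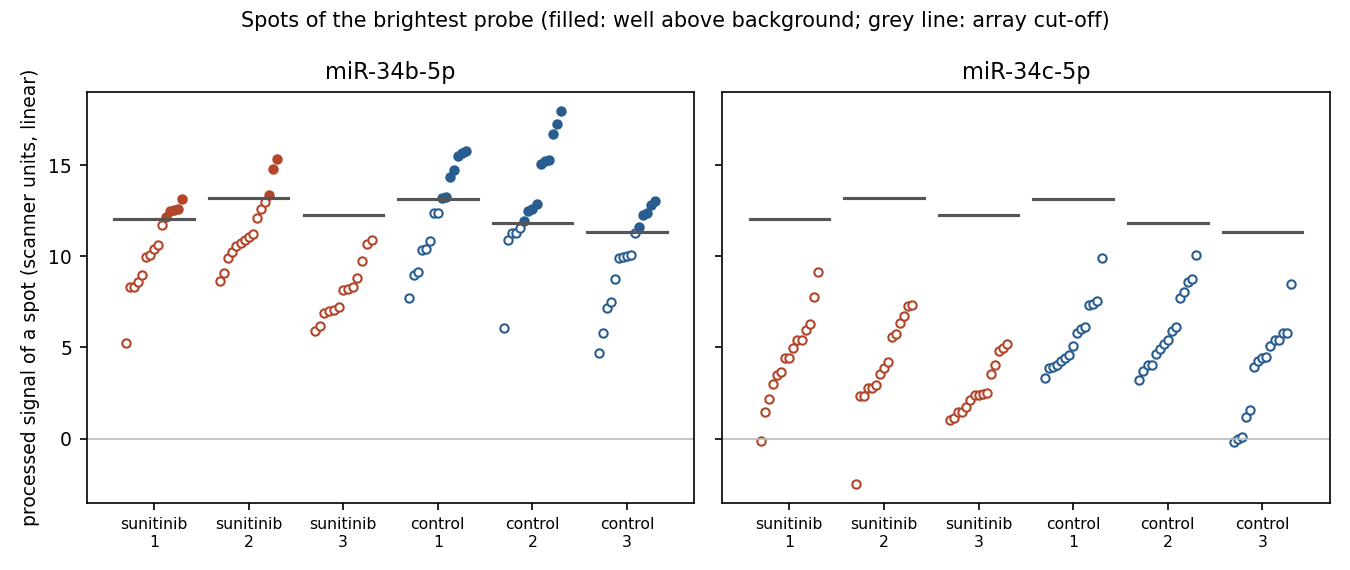
Processed signal of every usable spot of the brightest probe of miR-34b-5p (left) and miR-34c-5p (right) on a linear axis in scanner units, by array, sunitinib (red) before control (blue), sorted within each array. Grey lines are each array's limit for a spot well above background: spots of miR-34b-5p straddle it on 5 of 6 arrays, and none of the 90 spots of miR-34c-5p reaches it.

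miR-34b-5p was therefore not tested for a change. Its count of arrays well above background, 0 of 3 with sunitinib and 1 of 3 in control, can give no evidence of a difference, because with 1 array of 6 the exact two-sided permutation p is 1.0 whichever group holds it. The measured scaled log2 values were 3.17, 3.65 and 3.01 in sunitinib hearts against 3.44, 3.62 and 3.45 in control hearts, and the groups overlapped. No fold is given, since 5 of the 6 arrays were under the limit. All 88 usable spots were nevertheless positive and significant over local background by the scanner software's own flag, a weaker criterion than the one used here.

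miR-34c-5p, the other product of that gene, was below the limit on every array. Its brightest probe averaged 4.50, 4.09 and 2.75 units in sunitinib hearts against 5.58, 6.02 and 3.72 units in control hearts, or 0.224 to 0.510 times the limit. None of its 90 usable spots was well above background, and 71 carried the weaker flag. The scaled log2 values, 1.83, 2.06 and 1.29 in sunitinib hearts against 2.27, 2.45 and 1.82 in control hearts, overlapped and carry no test. The brightest miR-34c-5p probe has 18 of its 20 bases paired with miR-34b-5p, and how much of its signal comes from that neighbour was not tested.

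miR-192-5p was the detected member with the largest measured difference, yet it did not pass the test. Its scaled log2 signal was 6.72, 6.92 and 6.66 in sunitinib hearts and 6.59, 6.66 and 6.56 in control hearts. The groups did not overlap, but sunitinib replicate 3, at 6.664, and control replicate 2, at 6.663, were almost equal. Such separation was common, at 27.4% of the 237 tested miRNAs. The means were 6.77 ± 0.14 in sunitinib hearts and 6.60 ± 0.054 in control hearts (SD, n = 3 each). The log2 change of 0.16 had a standard error of 0.085, and limma gave an adjusted p of 0.351. The 95% interval ran from −0.04 to 0.37, or 0.970 to 1.29 times the control level.

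Unscaled, the miR-192-5p probe read 118, 110 and 100 units in sunitinib hearts and 107, 106 and 81.5 units in control hearts, and these ranges overlapped. All 85 usable spots were well above background, at 7.21 to 9.78 times the limit. The shorter, 18-base probe gave a smaller log2 change of 0.07, with scaled log2 values of 5.50, 5.64 and 5.37 in sunitinib hearts against 5.49, 5.38 and 5.42 in control hearts, and its groups overlapped. The scanner file names put sunitinib replicates 1 and 2 in slide row 1 and the other 4 arrays in slide row 2. The log2 change was 0.06 with slide row as a block and 0.09 within row 2. Row 1 holds no control array, so both values set sunitinib replicate 3 alone against the 3 control arrays. The part of slide row in the difference was not tested further.

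miR-194-5p, whose Mir194-2 copy is the close neighbour of Mir192, had a change near 0. Its scaled log2 signal was 5.71, 5.93 and 5.89 in sunitinib hearts and 5.88, 5.83 and 5.89 in control hearts. Sunitinib replicate 1 was the lowest array and sunitinib replicate 2 the highest, with the controls between them. The means were 5.84 ± 0.12 in sunitinib hearts and 5.87 ± 0.033 in control hearts (SD, n = 3 each). The log2 change of −0.02 had a standard error of 0.077, a 95% interval of −0.21 to 0.16 and an adjusted p of 0.882 in limma. The interval covers 0.864 to 1.12 times the control level. The 15-base probe gave a log2 change of −0.11 and read 16.8 to 23.9 units over the 6 arrays, with 85 of its 89 spots well above the limit.

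Since miR-192 and miR-194-2 can come from a shared primary transcript, the scaled log2 signals of miR-192-5p and miR-194-5p were subtracted on each array. Array scaling cancels in this difference. The miR-194-5p signal also holds any RNA from the chromosome 1 copy, so the difference cannot show how that transcript moved. The difference was 1.01, 1.00 and 0.77 in sunitinib hearts against 0.71, 0.83 and 0.67 in control hearts. Sunitinib replicate 3 fell inside the control range, so the groups overlapped. The mean shift was 0.19 on the log2 scale.

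**Figure D3:**
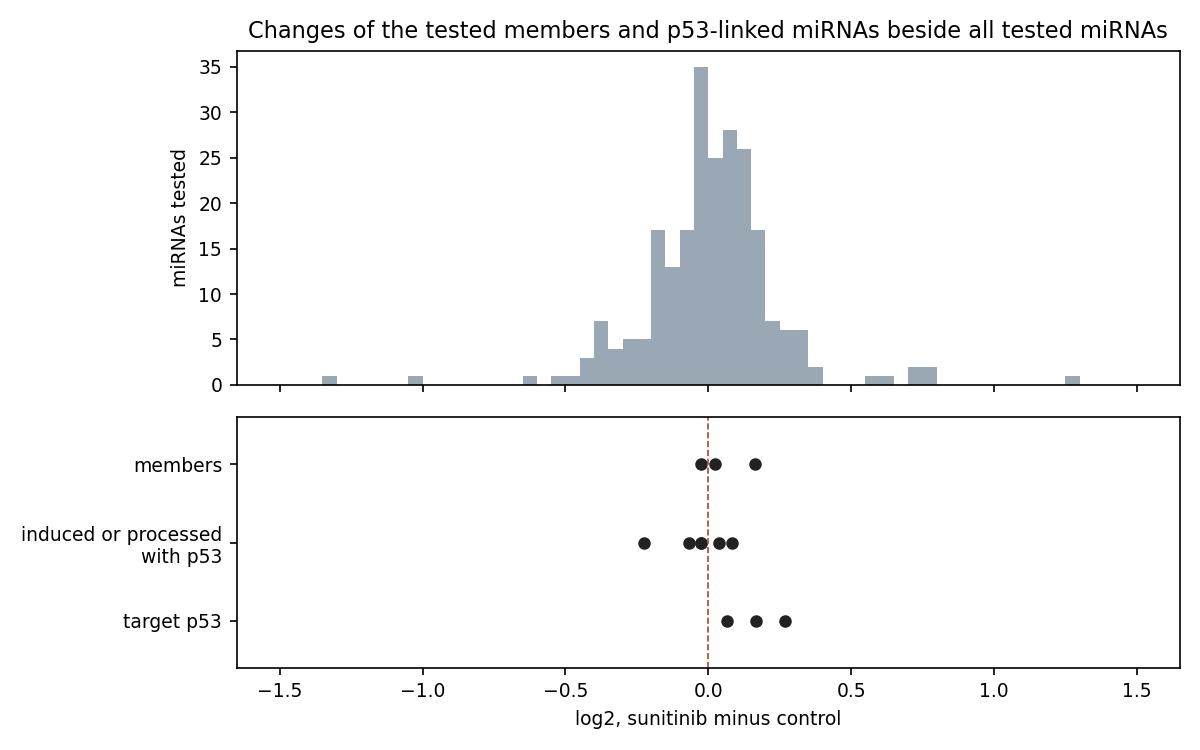
Log2 change, sunitinib minus control (horizontal axis), of the tested miRNAs as a histogram (top, bins of 0.05). Points (bottom) give the 3 tested members, 6 miRNAs raised by p53 and 3 that target p53. Of the 237 tested miRNAs, miR-511-3p (−1.97) and miR-5110 (2.39) lie beyond the bins and are not drawn. The members lie between −0.02 and 0.16, inside the body of the histogram.

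The changes and spreads of the members were read against those of all tested miRNAs. The median size of change over the 237 was 0.11 on the log2 scale, with quartiles of 0.05 and 0.20, and the median signed change was 0.02. Of the 237, 26 had a smaller change than miR-34a-5p, 28 a smaller one than miR-194-5p and 156 a smaller one than miR-192-5p. The pooled SD within groups was 0.10 for miR-34a-5p, 0.10 for miR-192-5p and 0.09 for miR-194-5p, against a median of 0.11. In all 5 members the highest sunitinib array was replicate 2, as it was for 120 of the 237 (50.6%). The sunitinib SD exceeded the control SD in all 3 tested members, as in 172 of the 237 (72.6%).

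The passenger arms and cluster partners of the member hairpins were not detected. None of the 8 (miR-34a-3p, miR-34b-3p, miR-34c-3p, miR-192-3p, miR-194-1-3p, miR-194-2-3p, miR-215-5p and miR-215-3p) was well above background on any array. Nor was any of the relatives with a member's seed, miR-449a-5p, miR-449b, miR-449c-5p and miR-215-5p, 0 of 4. miR-215-5p, which shares its seed with miR-192-5p and its chromosome 1 cluster with miR-194-1, had scaled log2 values of 2.62, 1.90 and 2.49 in sunitinib hearts and 1.64, 1.66 and 1.83 in control hearts. These did not overlap, a separation seen in 27.4% of the 237 tested miRNAs, to which miR-215-5p does not belong. All 88 of its usable spots were under the limit, so no fold change is given. Of the 88 spots, 69 carried the weaker flag. The brightest miR-215-5p probe has 16 of its 18 bases paired with miR-192-5p, and how much of its signal comes from miR-192-5p was not tested.

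No other miRNA on the lists tied to p53 passed the test. Of 9 miRNAs that p53 is known to induce or to help process, 8 were found on the array under the listed names, 6 were tested and 0 were called. At an unadjusted p under 0.05, limma called 1 of the 6, miR-145a-5p, beside 19% of all 237. Their median log2 change was −0.02, near that of all 237. miR-145a-5p, a smooth muscle miRNA, had 6.67, 6.81 and 6.78 in sunitinib hearts against 6.998, 6.87 and 7.07 in control hearts. Its groups did not overlap, as in 27.4% of all 237, and its log2 change of −0.23 had an adjusted p of 0.211 in limma. miR-107-3p (0.08), miR-15a-5p (−0.02), miR-16-5p (−0.02), miR-143-3p (−0.07) and miR-22-3p (0.04) had overlapping groups, and miR-200c-3p and miR-141-3p were at background.

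Of 4 miRNAs known to repress p53 itself, miR-504-5p was at background and 3 were tested, with 0 called. At an unadjusted p under 0.05, limma called 2 of the 3, miR-30d-5p and miR-25-3p, beside 19% of all 237. All 3 had a change above 0, as had 125 of all 237. miR-30d-5p had 9.63, 9.38 and 9.50 in sunitinib hearts against 9.28, 9.22 and 9.21 in control hearts. All 3 sunitinib arrays were the higher, and the log2 change of 0.27 had an adjusted p of 0.150 in limma. For miR-25-3p the log2 change was 0.17 with an adjusted p of 0.246 in limma, also without overlap, and for miR-125b-5p it was 0.07. Groups without overlap were seen in 27.4% of all 237.

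Some blood-cell miRNAs moved in the same comparison. Of 5 markers, all well above background, 2 were called lower, beside 1.69% of all 237. The myeloid miR-223-3p fell by 1.32 on the log2 scale (adjusted p 0.000860 in limma). The leukocyte miR-142a-3p fell by 0.64 (adjusted p 0.0200 in limma). The red-cell markers miR-451a, miR-144-3p and miR-486a-5p did not pass. In tissue RNA, fewer cells of a type and less RNA per cell cannot be told apart. Their part in the members' values was not tested.

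The miRNAs whose pattern over the 6 arrays was most like each detected member were named by Pearson correlation of scaled log2 signal, as a description over arrays that share scaling and groups. For miR-34a-5p these were miR-1904 (r = 0.834), miR-208a-5p (0.814) and miR-466i-3p (0.808). For miR-192-5p they were let-7g-5p (0.988), let-7d-3p (0.941) and let-7a-5p (0.926). For miR-194-5p they were miR-6360 (0.981), miR-5622-3p (0.963) and miR-494-3p (0.963). No member was among the most alike of another.

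**Figure D4:**
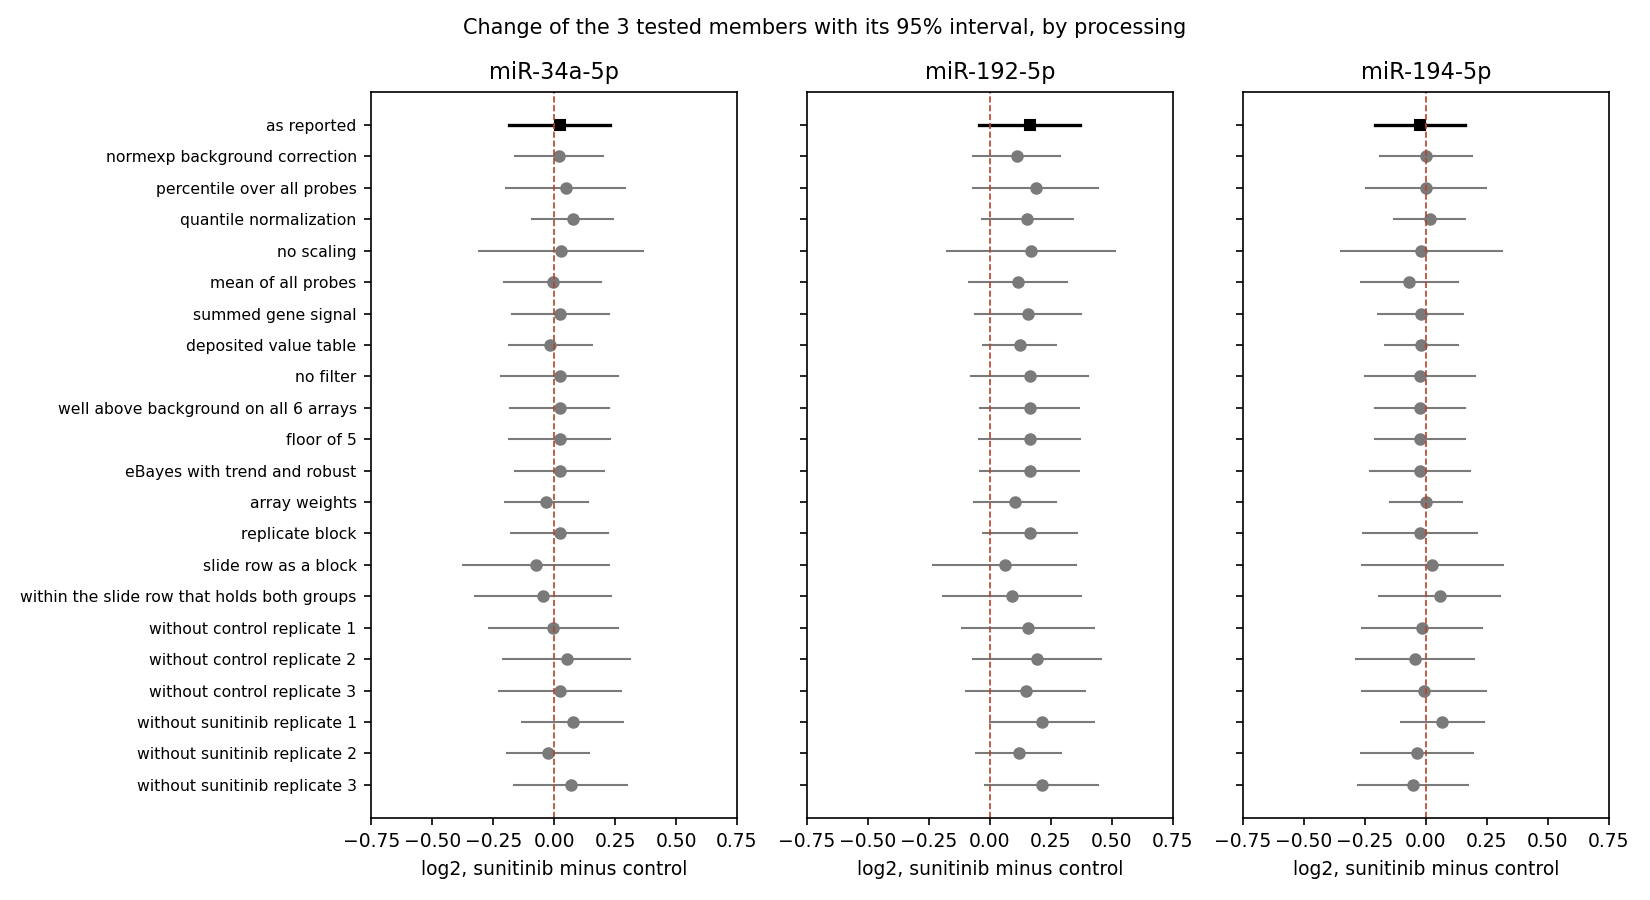
Log2 change, sunitinib minus control, of the 3 tested members (points) with its 95% interval (lines), as reported (top, black square) and under 21 other ways of processing (grey). Every interval includes 0; miR-192-5p stays above 0 throughout, from 0.06 to 0.21, while the other 2 members fall on both sides of 0.

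Across 21 other ways of processing, none of the 3 tested members passed the threshold. Of these, 5 leave the log2 change itself as it is and alter only its test, which leaves 16 that could move it. Among the 16, the slide row block and the fit within the shared slide row both rest on sunitinib replicate 3 against the controls. The log2 change of miR-192-5p was above 0 in those 16, from 0.06 to 0.21, with adjusted p from 0.261 to 0.934 over all 21. That of miR-34a-5p ranged from −0.07 to 0.08 and that of miR-194-5p from −0.07 to 0.07, and each changed sign in 7 of the 16. Their directions are therefore not given here as results.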

How the data were processed

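The members and the lists of related miRNAs were chosen with earlier results of these data known. Sample titles gave the groups and replicate numbers. Spot intensity in the deposited scanner files is linear, background-subtracted by the authors with Agilent Feature Extraction, version 10.7 per the submitters' processing notes and 10.7.1.1 per the file headers. Per the file headers, a spot is well above background where it exceeds it by 13 background SDs. The deposited value table holds log2 values, with a scale and centring not given in the sources used here; it served as an alternative.

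Control spots and outlier-flagged spots were left out. Each array was scaled on its 75th percentile over 393 probes, floored at 1 and put on the log2 scale, and spots were averaged by probe. Each miRNA was represented by its brightest probe over all arrays. limma 3.58.1 (lmFit and eBayes, R 4.3.3) was fitted to 237 miRNAs, with p-values adjusted over all of them and a threshold of 0.05. The number of arrays limits the precision. Named miRNAs are the members, their partner arms, seed relatives, p53-linked miRNAs and cell markers, and the 3 most alike by correlation. Alternatives changed the scaling, background correction, filter, floor, probe summary, blocks, variance model and samples, and the procedure was tested on simulated data.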

Additional observations from a re-analysis of the deposited data

How the results depend on the processing

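miR-34a-5p changed sign to −0.0061 on the log2 scale with the mean of all probes, −0.0161 with the deposited value table, −0.0315 with array weights, −0.0738 with slide row as a block and −0.0441 within the slide row that holds both groups. It also changed sign without control replicate 1 (−0.0040) and without sunitinib replicate 2 (−0.0238). Both slide row settings compare sunitinib replicate 3 alone with the control arrays. miR-194-5p changed sign to 0.0013 with normexp background correction, 0.00038 with the percentile over all probes, 0.0157 with quantile normalization, 0.0015 with array weights, 0.0270 with slide row as a block, 0.0567 within the slide row that holds both groups and 0.0674 without sunitinib replicate 1. Leaving out each array in turn gave −0.0238 to 0.0759 for miR-34a-5p, 0.117 to 0.213 for miR-192-5p and −0.0529 to 0.0674 for miR-194-5p. The groups of miR-192-5p overlapped with no scaling, the all-probe percentile, the summed gene signal or the probe mean, and within the slide row. The cause was not tested.

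Same-numbered arrays correlated at 0.18, 0.22 and −0.06 in their deviations from the group means, and differently numbered ones at −0.31 to 0.25. With so few arrays, these values cannot tell whether the replicate numbers pair the samples. With the number as a replicate block, limma called 0 miRNAs higher and 2 lower, and miR-192-5p had an adjusted p of 0.371 at its log2 change of 0.16, which the block cannot alter in a balanced design.

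Beside 4 higher and 4 lower, normexp called 2 and 2, and the summed gene signal 1 and 1. Quantile normalization called 0 higher, and no scaling 1 higher. The probe mean called 7 lower, no filter 0 higher (1881 tested) and array weights 7 lower. Counts for the 2 slide row settings are left out, since their contrast rests on 1 sunitinib array. Leaving out each array gave 0 to 12 higher, the most without sunitinib replicate 2, and 2 to 5 lower. miR-34b-5p was well above background on 0 arrays where all spots had to pass and on 5 where any spot sufficed. With 3 arrays a group, changes smaller than the intervals given cannot be seen, and signals under the limit bound miR-34b-5p and miR-34c-5p only from above.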

Other observations

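The scanner software's summed gene signal treats miR-34b-5p differently from its probes. That sum for miR-34b-5p was 265, 246 and 227 units in sunitinib hearts and 261, 267 and 210 units in control hearts, or 1.01 times the sum for miR-34a-5p on every array (263, 244 and 225 units with sunitinib, 259, 264 and 208 in control). It was 20.2 to 28.1 times the signal of the brightest miR-34b-5p probe, against a median ratio of 0.341 over the tested miRNAs. The excess of the miR-34b-5p sum over the miR-34a-5p sum was 0.212 times the brightest miR-34b-5p probe on all 6 arrays. The deposited value table gave miR-34b-5p 3.18, 3.27 and 2.79 in sunitinib hearts and 3.10, 3.19 and 3.09 in control hearts on its log2 scale.

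On the same array, the scaled log2 signal of miR-34a-5p minus that of miR-192-5p was 2.77, 2.77 and 2.78 in sunitinib hearts against 2.88, 2.91 and 2.96 in control hearts. Array scaling cancels in this difference, only its shift between groups of −0.14 has a meaning, and the pair was singled out after its values were seen. With the shorter probes of both, the values were 3.11, 3.13 and 3.19 in sunitinib hearts against 3.14, 3.36 and 3.24 in control hearts, and the groups overlapped. The shift then was −0.10.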
